A study of Mus musculus with 3 samples.

Results

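Metallothioneins Mt1 and Mt2 and the zinc exporter Slc30a1 were followed across the lymphocytes of subcutaneous MC38-Ova tumors. They are 3 of the 32285 genes in the deposited count matrices, taken by symbol, and they were chosen by their levels in these same libraries, in the splits of natural killer (NK) cells by Gzmd and of CD8 T cells by Havcr2 and across cell types and Kaede colors. Their values in those splits, and their joint detection in single cells, are therefore given as a description without a test. Tumor cells (250000 per mouse) were injected under the skin of WT C57BL/6 mice carrying Kaede, a protein that switches from green to red under violet light. According to their titles the samples came from tumors that received an isotype control. Tumors were photoconverted on day 13 and collected on day 15. Kaede-green cells (KG+) are those taken to have arrived after the light, and Kaede-red cells (KR+) had been in the tumor for at least 48 h. Sorted CD45+ TER119- tumor-infiltrating lymphocytes (TILs), with CD11b+ NK1.1- cells excluded, were profiled with the droplet-based 3′ kit of 10x Genomics. There were 2 KG+ libraries, labelled as biological replicates, and 1 KR+ library. How many mice went into each library is not stated in the sources used here, so every spread below is a spread between these libraries.

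Metallothioneins are small cysteine-rich proteins that bind zinc and copper and buffer their free levels in the cytosol. The transcription factor MTF-1 (gene Mtf1) senses zinc and activates their genes through short metal response elements, and hypoxia, glucocorticoids and oxidative stress are further known inducers of Mt1 and Mt2. Slc30a1 encodes ZnT1, which carries zinc out of the cell across the plasma membrane and is a known MTF-1 target as well.

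In the GENCODE M21 annotation of GRCm38, Mt2 (ENSMUSG00000031762, chr8:94172664-94173568) and Mt1 (ENSMUSG00000031765, chr8:94179082-94180327) lie on the plus strand of chromosome 8 with 5513 bases between them. Slc30a1 (ENSMUSG00000037434) lies on the plus strand at chr1:191906767-191913247. None of the 3 shared an exact 50-base stretch of exon with another annotated gene. Inexact copies and copies outside the annotation were not searched for. Mt2 overlaps Gm45774 and Slc30a1 overlaps 1700034H15Rik, both on the minus strand. The 250 bases before each RefSeq start (GRCm38.p6) are shown because the members share a known regulator that recognizes a short motif. Capitals mark the letters TGCACNC or TGCGCNC, the core of a metal response element, on either strand.
Mt2, chr8:94172368-94172617, plus strand: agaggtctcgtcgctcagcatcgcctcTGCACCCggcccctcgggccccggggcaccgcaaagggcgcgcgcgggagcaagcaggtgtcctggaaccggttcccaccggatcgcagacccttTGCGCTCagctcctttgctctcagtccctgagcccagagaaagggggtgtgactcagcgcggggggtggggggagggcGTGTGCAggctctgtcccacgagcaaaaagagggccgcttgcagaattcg
Mt1, chr8:94178839-94179088, plus strand: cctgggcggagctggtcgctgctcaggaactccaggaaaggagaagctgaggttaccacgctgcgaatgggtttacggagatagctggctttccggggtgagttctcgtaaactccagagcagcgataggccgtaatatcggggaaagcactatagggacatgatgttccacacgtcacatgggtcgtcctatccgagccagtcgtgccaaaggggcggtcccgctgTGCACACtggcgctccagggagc
Slc30a1, chr1:191906531-191906780, plus strand: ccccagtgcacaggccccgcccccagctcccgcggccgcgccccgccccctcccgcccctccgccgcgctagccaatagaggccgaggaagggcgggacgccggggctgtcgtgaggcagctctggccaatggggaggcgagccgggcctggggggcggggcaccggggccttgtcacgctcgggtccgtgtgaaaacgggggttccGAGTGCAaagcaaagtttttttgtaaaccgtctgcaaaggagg
The Mt2 window held 3 matches, 223, 128 and 50 bases before the start, the last on the minus strand. As many or more were found in 1.26% of 32851 windows of the same length. The Mt1 and Slc30a1 windows held 1 match each, 23 and 43 bases before the start, the second on the minus strand, and at least 1 match was present in 21.4% of all windows. The GENCODE annotation gives Mt1 other starts, 129 and 159 bases past its first GENCODE start. The 250 bases before either held 5 matches, and 27 of the 32851 windows (0.0822%) held as many or more. Other starts were searched for Mt1 only, while the windows counted lie before RefSeq starts. This share therefore does not rank Mt1 against Mt2 or Slc30a1. Of these 5, 1 is the match already shown and the other 4 stand in a pair of short stretches (GRCm38).
Mt1, chr8:94179091-94179115, plus strand: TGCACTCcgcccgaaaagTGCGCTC
Mt1, chr8:94179173-94179193, plus strand: GGGTGCAaacccttTGCGCCC
A match describes the letters of the window and not a bound site, and these windows were not measured in this experiment.

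The matrices held 10498, 12327 and 11956 barcodes and 87193225, 129438292 and 175848894 unique molecular identifiers (UMIs, here simply counts of captured mRNA molecules). From here on, sets of 3 values stand in the order KG+ replicate 1, KG+ replicate 2, KR+. After filters on genes, mitochondrial UMIs and doublets, 30852 cells remained, with a median of 6473, 8378 and 11834 UMIs, so that the KR+ cells were the most deeply sampled. Cells were gated on raw UMIs as NK (Ncr1 at least 1, Cd3e at most 1), CD8 T (Cd3e at least 2, Cd8a and Cd8b1 at least 1), regulatory T (Treg, Cd3e at least 2, Foxp3 at least 1) and γδ T (Cd3e at least 1, Cd163l1 at least 1). The gates held 20266 cells, of which 537 passed more than 1 gate, 364 of them CD8 T and Treg and 142 CD8 T and γδ T. Unless stated, such cells were counted in each gate that they passed. Levels are given as CPM, that is, a gene's UMIs pooled within a group and library and divided by the pooled UMIs of all genes. Each gate's marker list, which includes genes that set the gate, summed highest in that gate. The NK list summed to 11620, 9100 and 4732 CPM in NK cells and to 897, 1261 and 1031 CPM in CD8 T cells. In γδ T cells of KG+ replicate 2, however, the CD8 T list (2355 CPM) exceeded their own (2139 CPM). Lists for fibroblasts, red cells and epithelial or tumor cells stayed below 13 CPM in every gate. The myeloid list was higher in places, at 15.8, 74.3 and 8.46 CPM in NK cells. Between 20 and 36 barcodes were shared by each pair of libraries.

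Mt1 and Mt2 followed 1 order over the cell groups, with 1 exchange at neighboring places, whereas Slc30a1 had a nearly flat profile. Mt1 was highest in CD8 T cells with at least 1 UMI of Havcr2, which encodes the inhibitory receptor TIM-3 (606 ± 154 CPM, SD, n = 3 libraries). It followed in Treg cells (437 ± 151 CPM) and in NK cells with at least 3 UMIs of the granzyme gene Gzmd (308 ± 140 CPM). CD8 T cells without Havcr2 held 174 ± 73.9 CPM, NK cells with 1 or 2 Gzmd UMIs 126 ± 30.6 CPM, γδ T cells 117 ± 82.0 CPM and NK cells without Gzmd 46.8 ± 28.4 CPM. The libraries of each neighboring pair in this order overlapped in level, whereas those of the first and the last group did not. Mt2 ran from 115 ± 22.1 CPM in Havcr2-positive CD8 T cells, through 64.2 ± 26.1 in Treg cells and 50.2 ± 21.4 in Gzmd-high NK cells, to 7.28 ± 4.98 in NK cells without Gzmd. Slc30a1 ran from 16.1 ± 2.83 CPM in Havcr2-positive CD8 T cells to 9.75 ± 1.90 CPM in Gzmd-high NK cells, and its groups overlapped apart from Gzmd-high NK cells, whose highest library (11.3 CPM) stayed below the lowest of both CD8 T groups and of the other NK groups.

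**Figure D1:**
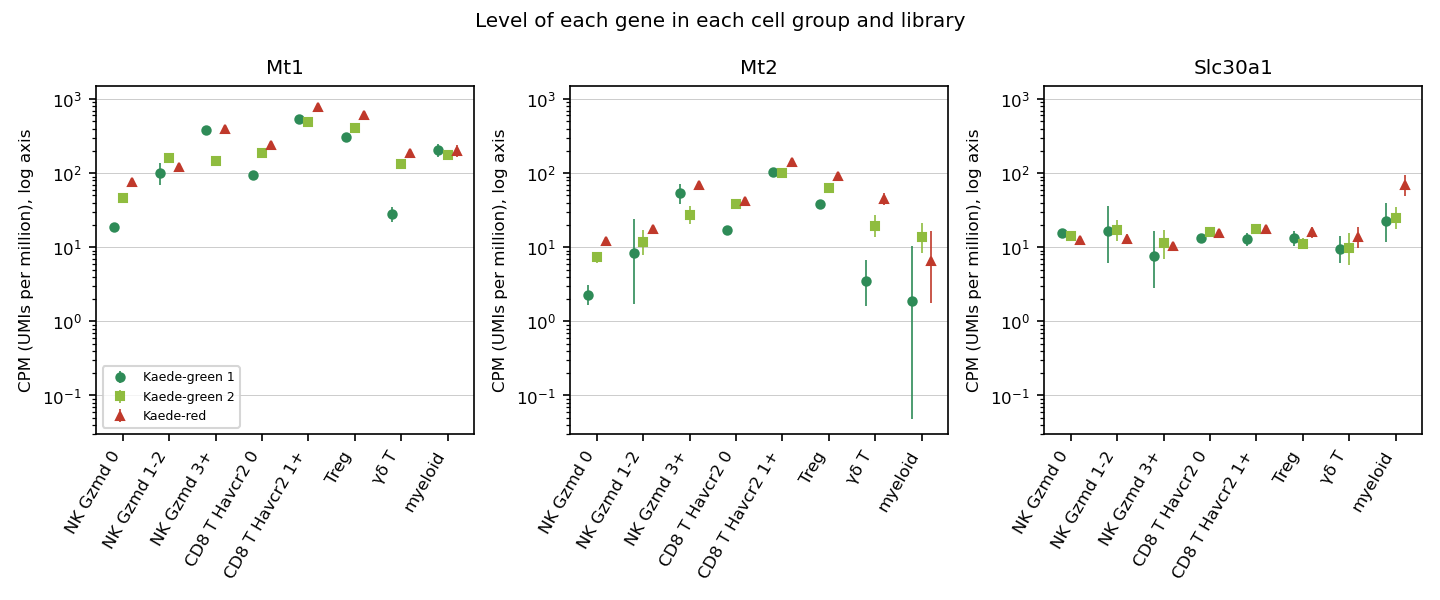
Level of Mt1, Mt2 and Slc30a1 (CPM of UMIs summed per library and cell group, log axis) in 7 lymphocyte groups and in myeloid cells. There is 1 point per library, with exact Poisson intervals. Mt1 in CD8 T cells with Havcr2 lay between 498 and 783 CPM, above the 19.0 to 75.7 CPM of NK cells without Gzmd. The Slc30a1 points of the lymphocyte groups lay between 7.62 and 17.7 CPM, and those of myeloid cells lay above them.

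Droplets also capture free RNA, and no cell type here is known to lack these genes, so B cells (Cd79a at least 2, Ms4a1 at least 1) served as a low reference. They held 19.6 and 24.9 CPM of Mt1 in the KG+ libraries, 151 and 78 cells, and only 2 B cells were found in the KR+ library. Of Mt2, 0 UMIs were found in the 151 B cells of replicate 1, with an exact Poisson upper bound of 5.57 CPM, and 6.23 CPM was found in replicate 2. After thinning every cell to 2000 UMIs, 1.99% and 6.41% of B cells had an Mt1 UMI, beside 2.13% and 5.88% of NK cells without Gzmd in the same libraries. Mt1 detection in KG+ NK cells without Gzmd was thus at the B-cell level. By CPM they were alike in replicate 1, at 19.0 CPM, but held 45.8 CPM in replicate 2. The B-cell value of replicate 2, 24.9 CPM, rested on 12 UMIs. The detection shares of CD8 T, Treg and Gzmd-high NK cells were above those of B cells in both KG+ libraries. For Gzmd-high NK cells of replicate 2 this rested on 10 of 68 cells. For Slc30a1 the B-cell level was 15.1 and 12.5 CPM, with exact Poisson intervals (7.24 to 27.8 and 4.58 to 27.1 CPM) that held the value of every lymphocyte group in these libraries, so its level there could not be told from this reference.

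Among NK cells, both metallothioneins were higher where Gzmd was high. Gzmd, which encodes a granzyme, marked few KG+ cells and many KR+ cells, with at least 3 UMIs in 29, 68 and 718 cells and 0 UMIs in 2486, 2364 and 1761 cells. Mt1 measured 19.0, 45.8 and 75.7 CPM in NK cells without Gzmd and 387, 146 and 391 CPM in Gzmd-high NK cells. The 2 groups did not overlap, with ratios of 20.4, 3.18 and 5.16 within the libraries and a mean log2 ratio of 2.80 ± 1.39 (SD, n = 3). Replicate 1, with only 29 Gzmd-high cells, gave the widest ratio.

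Mt2 behaved in the same manner, with 2.30, 7.28 and 12.3 CPM without Gzmd and 53.3, 27.4 and 70.0 CPM with it, a mean log2 ratio of 2.99 ± 1.37. Slc30a1 did not share this difference. It held 15.4, 14.1 and 12.4 CPM without Gzmd and 7.62, 11.3 and 10.3 CPM with it, a mean log2 ratio of -0.53 ± 0.42, lower in all 3 libraries but with only 6 UMIs in the Gzmd-high cells of replicate 1. Over all 11920 genes fitted in this split by edgeR's quasi-likelihood test on sums per library, 7.53% were called higher and 11.1% lower at an adjusted p under 0.05. Since this split chose the members, nothing is read from their place in it.

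NK cells just under the gate, with 1 or 2 Gzmd UMIs, held 99.7, 160 and 120 CPM of Mt1 and 8.31, 11.9 and 17.6 CPM of Mt2, in 33, 196 and 690 cells. For Mt1 these values lay between the Gzmd 0 and Gzmd-high cells of the same library except in replicate 2, where they exceeded the Gzmd-high level. There, 1 cell held 183 of the 364 Mt1 UMIs. Gzmd-high cells were also much deeper, with a median of 28818, 26930 and 30999 UMIs against 6026, 7941 and 12954 in NK cells without Gzmd. At 2000 UMIs per cell, Mt1 was detected in 41.4%, 14.7% and 31.9% of Gzmd-high cells and in 2.13%, 5.88% and 8.97% of cells without Gzmd, so the order of the groups was the same at equal depth. Without thinning the shares were 72.4%, 61.8% and 76.5% against 6.07%, 19.97% and 30.3%. A sum cannot tell fewer expressing cells from less RNA in each, and here the share of positive cells moved together with the sum. Of the 10 early-response and heat-shock genes listed as signs of tissue dissociation, 7 were lower in Gzmd-high NK cells (Fos by a log2 ratio of -1.67, adjusted p = 4.82e-08) and none higher. The myeloid marker list summed to 14.4, 48.2 and 10.3 CPM in NK cells without Gzmd and to 38.1, 12.4 and 7.42 CPM in Gzmd-high ones. Whether handling or myeloid RNA had a part in the Mt1 difference was not tested.

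Among CD8 T cells, the metallothioneins were higher in cells with Havcr2. Mt1 measured 93.4, 188 and 239 CPM in cells without Havcr2 and 537, 498 and 783 CPM in cells with it, without overlap. The ratios within libraries were 5.75, 2.64 and 3.28, a mean log2 ratio of 1.88 ± 0.58. Mt2 rested at 16.9, 38.8 and 42.1 CPM without Havcr2 and at 105, 99.3 and 140 CPM with it, a mean log2 ratio of 1.91 ± 0.66. Slc30a1 held 13.3, 16.3 and 15.4 CPM without Havcr2 and 12.8, 17.6 and 17.7 CPM with it, and its mean log2 ratio of 0.09 ± 0.13 was within the spread between libraries. In this split 13.2% of the 12233 genes fitted were called higher and 13.9% lower, and this contrast too was used to choose the members.

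At the edge of the gate, CD8 T cells with exactly 1 Havcr2 UMI held 316, 344 and 550 CPM of Mt1, and cells with 2 or more held 674, 590 and 877 CPM. Mt1 was therefore graded over 0, 1 and more UMIs of Havcr2 in each library. Detection at 2000 UMIs per cell was also higher, from 7.42%, 16.5% and 18.6% of cells without Havcr2 against 35.1%, 38.2% and 49.6% of cells with it. The median depth was 8366, 9373 and 11167 UMIs without and 13526, 12685 and 17565 UMIs with Havcr2. The myeloid marker list summed to 14.0, 24.9 and 9.64 CPM without Havcr2 and to 10.0, 33.2 and 7.93 CPM with it, higher in KG+ replicate 2 only. Other marker lists were higher with Havcr2 in all 3 libraries, as Mt1 was. The NK list went from 665 to 1446, from 1068 to 1521 and from 558 to 1385 CPM, and the Treg list from 422 to 796, from 518 to 673 and from 574 to 685 CPM. Both lists hold genes that activated CD8 T cells also express, such as Prf1 and Ctla4, and their part in the Mt1 difference was not tested.

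**Figure D2:**
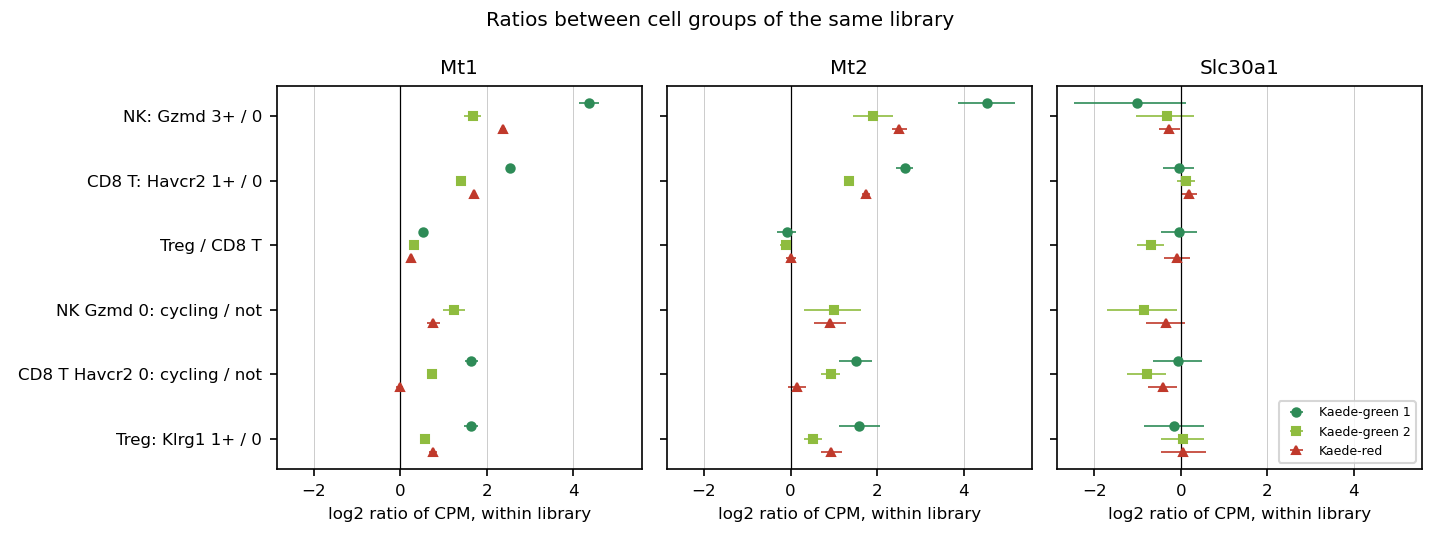
Log2 ratio of CPM between 2 cell groups of the same library (horizontal axis) for Mt1, Mt2 and Slc30a1, with 1 symbol per library and 95% intervals that cover counting error only. Mt1 and Mt2 lay right of 0 in every library for the Gzmd and Havcr2 splits (Mt1 from 1.40 to 4.35), whereas Slc30a1 straddled 0 or lay left of it.

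Treg cells stood second in both metallothioneins, with 306, 402 and 602 CPM of Mt1, 38.2, 63.9 and 90.4 CPM of Mt2 and 13.2, 11.2 and 15.9 CPM of Slc30a1. KR+ held the highest value of all 3 genes and KG+ replicate 1 the lowest of Mt1 and Mt2. Against CD8 T cells as a whole, and with cells of both gates left out, Mt1 was higher in Treg cells in every library, at 323 against 225, 388 against 310 and 661 against 555 CPM, a mean log2 ratio of 0.37 ± 0.14. Mt2 differed little (-0.06 ± 0.07), and at 2000 UMIs per cell its mean log2 ratio turned to 0.25 while that of Mt1 grew to 0.74. Slc30a1 differed by -0.27 ± 0.37, within the spread. Of 12077 genes fitted, 13.1% were called higher and 11.4% lower in Treg cells.

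γδ T cells varied most between libraries, with 28.1, 131 and 190 CPM of Mt1, 3.56, 19.6 and 45.1 CPM of Mt2 and 9.48, 9.82 and 13.6 CPM of Slc30a1 in 300, 187 and 317 cells. In the KR+ library 1 cell held 141 of the 543 Mt1 UMIs, and the most Mt2 UMIs in a cell were 51 of 129. Only 2.33%, 6.95% and 9.46% of γδ T cells had an Mt1 UMI at 2000 UMIs per cell, the first 2 of these close to the B-cell shares of the same libraries, while KR+ had no such reference. Few cells thus set the γδ T-cell level. Over the 3 libraries, 142 cells passed both the γδ T and the CD8 T gate and were kept here. Their part in the γδ T-cell level was not measured.

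The few myeloid cells that passed the sort (35, 86 and 41 with at least 3 Lyz2 UMIs and none of Cd3e, Ncr1 or Cd79a) had Mt1 with little Mt2. Their myeloid marker list, which includes Lyz2, summed to 800, 2564 and 11596 CPM, with 4, 2 and 0 of its 8 genes at 0 UMIs. This gate may therefore hold different cells in each library. The gated cells held 203, 177 and 200 CPM of Mt1 but 1.90, 13.8 and 6.57 CPM of Mt2, the lowest of these resting on 1 UMI. As a ratio of UMIs, Mt1 exceeded Mt2 by 107 (95% interval 18.8 to 4265), 12.8 (8.12 to 21.3) and 30.5 (11.6 to 114) in myeloid cells. In CD8 T cells the ratio was 5.23, 4.96 and 5.60, in Treg cells 8.01, 6.28 and 6.66, and in NK cells 7.90, 6.88 and 5.81. These ratios serve to compare cell types only, because capture may differ between the 2 mRNAs. Within each library the CD8 T interval lay below that of Treg cells and that of the myeloid cells. Slc30a1 was also high in myeloid cells, at 22.8, 24.9 and 69.0 CPM, above every lymphocyte group of the same library, though on 12 UMIs in replicate 1.

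Mt1 UMIs were unevenly spread over the cells of a group. The top 5% of NK cells without Gzmd held 92.3%, 65.4% and 60.5% of their Mt1 UMIs. The top 5% of CD8 T cells with Havcr2 held 39.3%, 34.5% and 35.8%. This share also depends on how many cells have any UMI. For Slc30a1 it went from 59.1%, 51.2% and 46.5% to 41.7%, 37.8% and 34.4% between the same groups, so it does not rank them by evenness. Positive cells of the first group carried 2.24, 2.24 and 3.77 Mt1 UMIs on average, those of the second 13.7, 11.96 and 18.7, and up to 713 in a single KR+ cell. Slc30a1 gave 1.16 to 1.32 UMIs per positive cell in these groups, so its cells rarely showed more than 1 molecule.

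Within single cells Mt1 and Mt2 were detected together far more often than the product of their shares. At 2000 UMIs per cell, 62, 182 and 353 CD8 T cells had both, where 11.1, 60.3 and 153 would be expected, which are ratios of 5.57, 3.02 and 2.31. In NK cells 3, 7 and 68 had both, ratios of 9.65, 3.24 and 4.15, the first on 3 cells. In Treg cells the ratios were 3.25, 2.47 and 2.39. In γδ T cells they were 0, 7.19 and 4.70, on 0, 2 and 4 such cells. Intervals given for these ratios below are 95% Poisson intervals on the number of cells with both genes. They take the expected number as fixed and count cells of 1 library, so they are no test.

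Read from Mt2, 72.9%, 72.8% and 77.1% of CD8 T cells with an Mt2 UMI also had Mt1, as did 80.8%, 75.3% and 87.4% of Treg cells and 25.0%, 21.2% and 61.3% of NK cells. Joint detection held inside both CD8 T groups too, with ratios of 9.24, 3.86 and 3.45 in CD8 T cells without Havcr2 and 2.17, 2.06 and 1.65 in those with it. In KG+ replicate 2 the intervals of NK cells without Gzmd (0.986 to 7.08) and of Gzmd-high NK cells (0.0861 to 18.9, on 1 cell) included 1. Mt1 and Slc30a1 had ratios nearer to 1 than Mt1 and Mt2 had in these gates. They were 1.74, 1.15 and 1.32 in CD8 T cells, 1.45, 1.12 and 0.836 in NK cells and 0.67, 1.31 and 1.17 in Treg cells. The intervals of this pair in CD8 T cells were 0.997 to 2.83, 0.791 to 1.61 and 1.02 to 1.67, and in the other gates every interval held 1. Inside the CD8 gate, cells without Havcr2 had ratios of 2.60 (1.30 to 4.65), 1.65 (1.02 to 2.53) and 1.29 (0.749 to 2.06), on 11, 21 and 17 cells. With cells thinned to 4000 UMIs, which leaves out shallower cells, these became 1.52 (0.869 to 2.47), 1.41 (1.03 to 1.89) and 1.33 (1.01 to 1.74). At that depth the pair had ratios of 1.25, 1.22 and 1.15 in all CD8 T cells and 1.54, 0.954 and 1.34 in NK cells. Back at the lower depth, Mt2 and Slc30a1 had ratios of 1.11, 1.55 and 1.35 in CD8 T cells, and every interval held 1. Without Havcr2 they were 1.76 (0.213 to 6.34), 2.80 (1.34 to 5.15) and 2.25 (1.03 to 4.28), on 2, 10 and 9 cells. With Havcr2 they were 0.697, 0.728 and 0.997. In NK and Treg cells this pair stayed below 1 in every library, on at most 2 cells.

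The amounts moved together as well. KR+ CD8 T cells with 0, 1, 2 to 4 and 5 or more Mt1 UMIs out of 2000 held 20.4, 77.7, 169 and 618 CPM of Mt2. The same steps were 6.26, 61.3, 160 and 750 CPM in KG+ replicate 1 and 15.0, 64.3, 219 and 507 CPM in replicate 2. In KR+ NK cells they were 8.33, 38.7, 124 and 441 CPM and in KR+ Treg cells 11.02, 79.4, 134 and 578 CPM. Over the same KR+ CD8 T cells Slc30a1 held 16.2, 25.6, 22.7 and 30.8 CPM, the last on 13 UMIs, so any gradient of the exporter was small beside that of Mt2. Cells of a bin share depth and library, and these numbers carry no test.

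**Figure D3:**
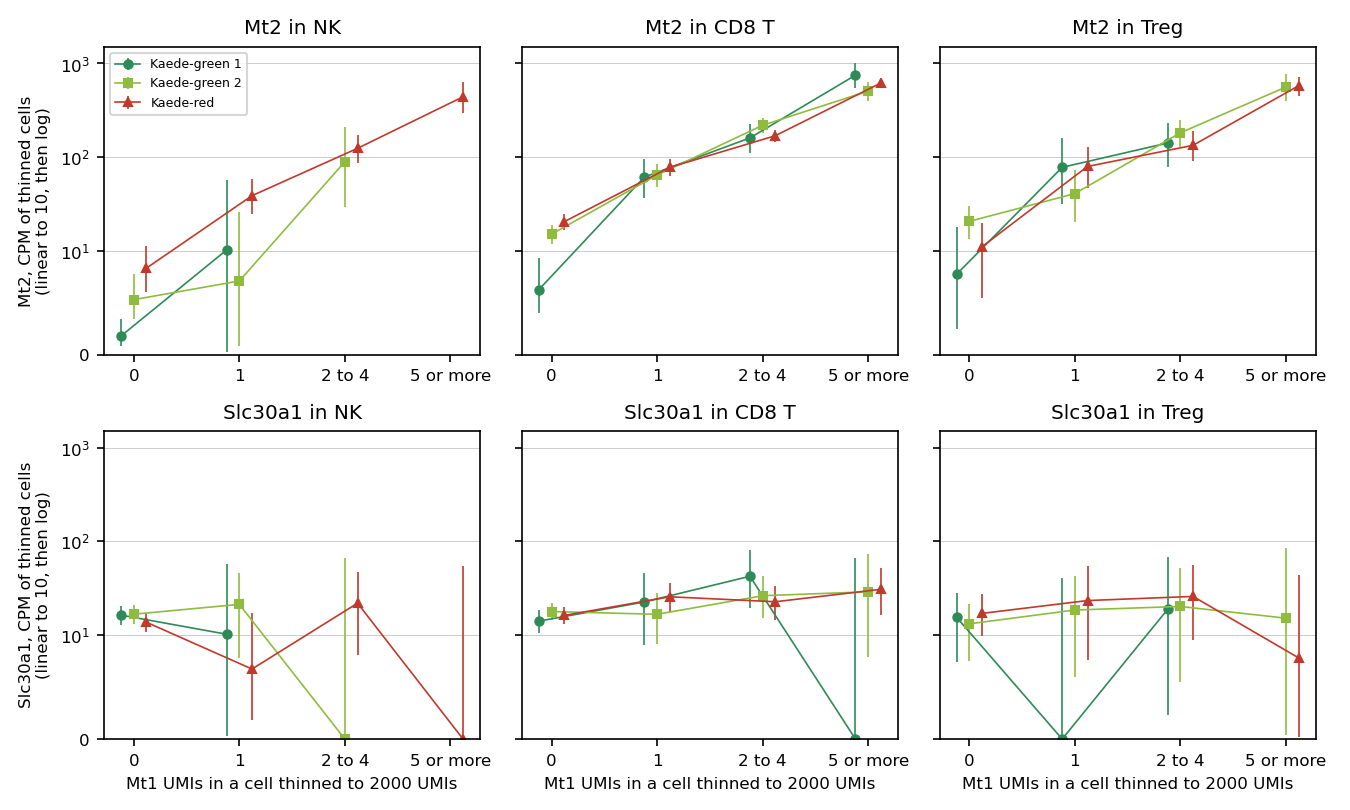
Mt2 and Slc30a1 (CPM after thinning each cell to 2000 UMIs) in cells grouped by their Mt1 UMIs, by gate and library, with exact Poisson intervals. In KR+ CD8 T cells Mt2 climbed from 20.4 to 618 CPM over the 4 bins, while Slc30a1 stayed between 16.2 and 30.8 CPM.

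Klrg1 and the cell cycle gave 3 splits that are not among those named above for the choice of the members, and there the genes were tested. These tests use the same libraries and were set with earlier results of these data known. All 3 members passed the filter on low counts in each split. In Treg cells with Klrg1, a receptor carried by activated effector Treg cells, Mt1 rose from 146 to 451, from 324 to 477 and from 422 to 711 CPM. The log2 fold change was 0.93 (SE 0.15, adjusted p = 0.00469, edgeR with the library as a block, n = 3 libraries), and in each library the Klrg1 group was higher. Mt2 rose from 18.7 to 55.8, from 52.4 to 75.2 and from 57.5 to 110 CPM, by a log2 fold change of 0.87 (SE 0.15, adjusted p = 0.00584). Slc30a1 stood at 13.9 and 12.5, 11.1 and 11.4, and 15.5 and 16.1 CPM without and with Klrg1, a log2 fold change of -0.02 (SE 0.17, adjusted p = 0.979), whose sign turned to 0.04 without KG+ replicate 1. Of 10074 genes, 3.24% were called higher and 3.82% lower.

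Both calls in Treg cells stayed past the threshold at equal depth, with log2 fold changes of 0.95 for Mt1 (adjusted p = 6.33e-07) and 0.96 for Mt2 (adjusted p = 0.00202). Slc30a1 moved to -0.56 there and was not called (adjusted p = 0.572). Leaving out 1 library at a time gave 0.64 to 1.15 for Mt1 and 0.70 to 1.15 for Mt2, each still called. Without the library block neither was called (adjusted p = 0.318 and 0.363). The count over all genes rested more on single libraries, with 711 called in all 3 and 163 without KG+ replicate 2.

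Cycling NK cells without Gzmd (Mki67 and Top2a both detected) had more metallothionein than their non-cycling counterparts (both at 0). KG+ replicate 1 had only 11 such cells and was left out, so this test rests on 75 and 159 cycling cells of the other 2 libraries. Mt1 rose from 37.3 to 88.4 CPM and from 65.2 to 110 CPM, a log2 fold change of 0.97 (SE 0.13, adjusted p = 3.6e-09, edgeR), and Mt2 from 7.06 to 14.1 and from 10.3 to 19.5 CPM, a log2 fold change of 0.95 (SE 0.22, adjusted p = 0.000592). Slc30a1 went from 14.7 to 8.14 and from 13.6 to 10.8 CPM, a log2 fold change of -0.50 that did not pass (SE 0.23, adjusted p = 0.0997). In this split 16.3% of 11117 genes were called higher and 11.9% lower. Cycling cells were deeper, with a median of 23874 and 30561 UMIs against 7421 and 10455. At 2000 UMIs per cell the log2 fold changes were 0.59 for Mt1 (adjusted p = 0.236) and 1.06 for Mt2 (adjusted p = 0.476), no longer called. With all deposited barcodes kept, or with doublets alone kept, replicate 1 reached the minimum of 20 cells and 3 libraries entered. The log2 fold changes were then 2.00 (adjusted p = 0.0113) and 1.90 (adjusted p = 0.0121) with all barcodes, and 0.91 (adjusted p = 0.00019) and 0.78 (adjusted p = 0.021) with doublets kept.

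In CD8 T cells without Havcr2 the cycling effect varied between libraries. Mt1 rose from 71.5 to 223 and from 153 to 253 CPM in the KG+ libraries but stood at 226 and 224 CPM in KR+, a log2 fold change of 0.71 over the 3 (SE 0.21, adjusted p = 0.0196, edgeR). Without KR+ it was 1.10 and without KG+ replicate 1 it was 0.32, both still called. Mt2 followed, from 13.3 to 37.7, from 31.3 to 59.4 and from 36.2 to 40.3 CPM, a log2 fold change of 0.72 (SE 0.18, adjusted p = 0.00835). Slc30a1 fell, from 13.5 to 13.0, from 17.8 to 10.4 and from 17.4 to 13.1 CPM, a log2 fold change of -0.48 (SE 0.16, adjusted p = 0.0289). That call was lost without KG+ replicate 2 (-0.30, adjusted p = 0.293) and without KR+ (-0.53, adjusted p = 0.0581). In this split 21.1% of 11215 genes were called higher and 19.9% lower, so a call in either direction was common.

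Depth differed here as well, with a median of 25296, 25159 and 23629 UMIs in cycling CD8 T cells against 7803, 8399 and 9355 in non-cycling ones. At 2000 UMIs per cell none of the 3 genes was called, at log2 fold changes of 0.46 for Mt1 (adjusted p = 0.190), 0.77 for Mt2 (adjusted p = 0.114) and -0.09 for Slc30a1 (adjusted p = 0.900). A difference of the cycling effect between NK and CD8 T cells was not detectable. The difference was 0.21 ± 0.34 (log2, SE) for Mt1 with an adjusted p of 0.930, 0.16 ± 0.33 for Mt2 (adjusted p = 0.952) and -0.08 ± 0.27 for Slc30a1 (adjusted p = 0.992), in an edgeR interaction term over 12055 genes.

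**Figure D4:**
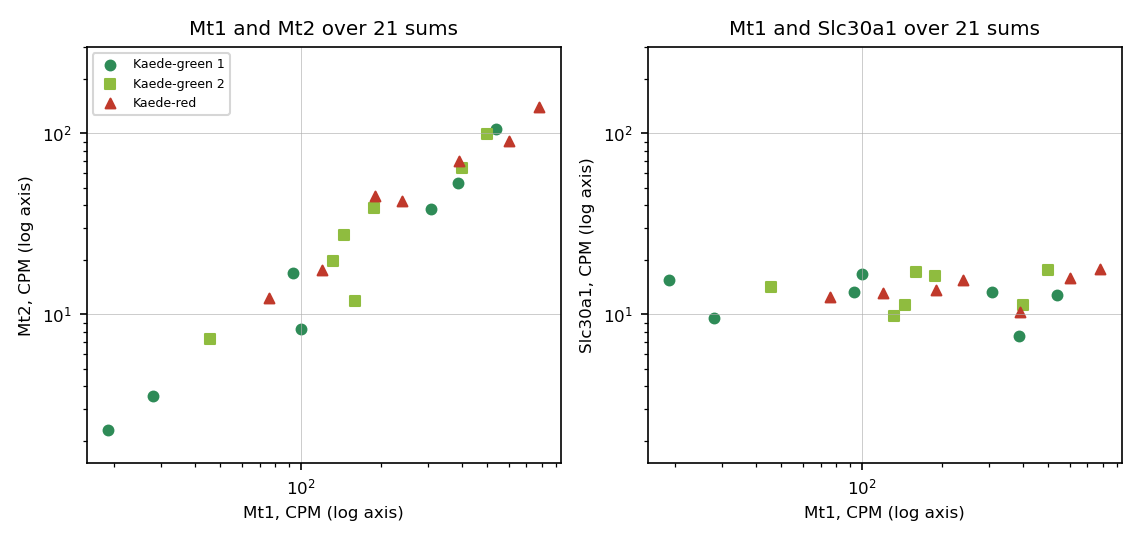
CPM of Mt2 and of Slc30a1 against that of Mt1 over the 21 sums of lymphocyte group and library, on log axes. Mt1 ranged from 19.0 to 783 CPM. Mt2 climbed with it, between 2.30 and 140 CPM, whereas Slc30a1 stayed between 7.62 and 17.7 CPM.

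By Kaede color, the level in KR+ was set beside each KG+ library, without a test because there was 1 KR+ library. A gene was called when KR+ exceeded both KG+ libraries by more than 1.5-fold. That held for 3 of 18 pairs of member and cell group. In NK cells without Gzmd it held for Mt1, with log2 ratios of 1.99 and 0.73 to the KG+ libraries, and for Mt2, with 2.40 and 0.75, where 5.35% of 12102 genes met the same rule. The 2 KG+ libraries themselves differed by 1.27 and 1.65 on the log2 scale for these genes, which is more than KR+ differed from replicate 2. In γδ T cells the rule held for Mt2 (3.59 and 1.19, with the KG+ libraries 2.41 apart), where 3.84% of 9151 genes met it. At 2000 UMIs per cell Mt1 in NK cells without Gzmd still met the rule, Mt2 there did not (1.86 and 0.47), and Mt2 in γδ T cells had too few UMIs to be compared.

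In the other groups the color rule held for none of the members before thinning. At 2000 UMIs per cell it held for Mt1 in CD8 T cells with Havcr2 (0.89 and 0.73) and in Treg cells (0.92 and 0.59), just past the 1.5-fold limit in Treg cells, and for Mt2 in Gzmd-high NK cells, where KG+ replicate 1 was then at 0 UMIs. Mt1 in CD8 T cells with Havcr2 also met it with doublets kept (0.59 and 0.64). Before thinning, the share of genes that met it was 2.73% in Gzmd-high NK cells, 4.94% in CD8 T cells without Havcr2, 2.57% in CD8 T cells with Havcr2 and 3.86% in Treg cells. Mt1 in CD8 T cells with Havcr2 had log2 ratios of 0.54 and 0.65 to KG+ libraries that differed by only -0.11, and Mt1 in Treg cells had 0.97 and 0.58. Gzmd-high NK cells gave Mt1 ratios of 0.01 and 1.42, so KR+ equaled replicate 1, and KR+ Slc30a1 differed from either KG+ library by at most 0.51 log2 units in every group. The order KG+ replicate 1, KG+ replicate 2, KR+ for Mt1 in NK cells without Gzmd was also the order of their median depth. It was the same at 2000 UMIs per cell, with 13.3, 36.8 and 63.3 CPM and log2 ratios of 2.25 and 0.78 of KR+ to the KG+ libraries.

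**Figure D5:**
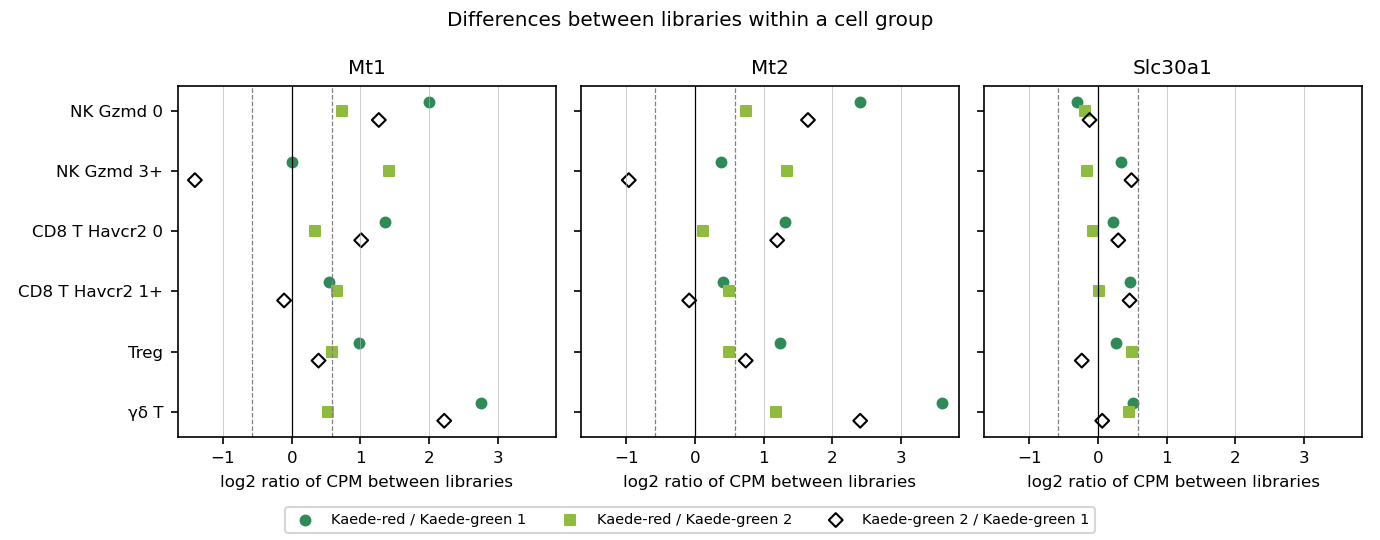
Log2 ratio of CPM between libraries within a cell group for each member, with KR+ over each KG+ library (filled symbols), KG+ replicate 2 over replicate 1 (open diamonds) and dashed lines at 1.5-fold. For Mt1 in NK cells without Gzmd the diamond at 1.27 lies between the filled symbols at 0.73 and 1.99, while the Slc30a1 symbols lie near 0.

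Of the remaining metallothionein genes on the list, Mt3 could be tested and Mt4 was too low. Mt3, a metallothionein best known from brain, was a minor transcript. It rose in CD8 T cells with Havcr2 from 3.72 to 18.3, from 7.80 to 21.4 and from 6.57 to 17.2 CPM (log2 fold change 1.57, adjusted p = 0.000437, edgeR). It was higher in Treg than in CD8 T cells, at 30.3, 39.8 and 57.6 against 7.99, 12.9 and 12.4 CPM (log2 fold change 1.80, adjusted p = 0.000438). In Treg cells with Klrg1 it rose from 9.91 to 40.3, from 21.8 to 47.9 and from 24.1 to 64.5 CPM (log2 fold change 1.39, adjusted p = 0.000475). It was not called in cycling CD8 T cells (0.48) and was too low to test in NK cells. The first 2 of these contrasts are among those that chose Mt1 and Mt2.

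Of the other zinc exporters of the Slc30 family, 5 were tested in the Gzmd, Havcr2, NK cycling and Klrg1 comparisons and none was called. Their median log2 fold change was 0.39 with Gzmd and 0.13 with Havcr2, where the median of all genes was -0.03 and -0.00. Between Treg and CD8 T cells, Slc30a2, an exporter of vesicles, was called higher in Treg cells, at 1.76, 3.08 and 3.04 CPM where CD8 T cells held 0, 0.0244 and 0.0154 CPM. Slc30a4 (-1.38, adjusted p = 0.0165) and Slc30a9 (-0.81, adjusted p = 0.00228) were lower, of 6 tested. In cycling CD8 T cells Slc30a6 rose (0.53, adjusted p = 0.0376) and Slc30a7 fell (-0.52, adjusted p = 0.0194), both transporters of the secretory pathway.

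Of the zinc importers (Slc39 family), Slc39a14, which encodes ZIP14, was the 1 of 11 called in Gzmd-high NK cells, where 7.53% of all genes were called higher. It rose from 7.08 to 31.7, from 7.02 to 16.1 and from 10.2 to 26.0 CPM (log2 fold change 1.53, adjusted p = 1.13e-05, edgeR), the groups not overlapping. In CD8 T cells with Havcr2 3 of 11 were called, all higher (13.2% of all genes), Slc39a14 by 0.55 (adjusted p = 0.0119), Slc39a10 by 0.50 (adjusted p = 0.0119) and Slc39a4 by 0.35 (adjusted p = 0.0203). Between Treg and CD8 T cells Slc39a4 was higher (0.72, adjusted p = 0.0206) and Slc39a6 (-0.40, adjusted p = 0.0453) and Slc39a14 (-1.06, adjusted p = 0.0117) lower. No importer was called in either cycling split or with Klrg1. Mtf1 itself was called nowhere, with 13.2 to 22.6 CPM throughout and log2 fold changes of -0.15 with Gzmd, 0.02 with Havcr2 and 0.03 with Klrg1.

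Genes of the other known inducing pathways were counted beside the members. Whether any of these pathways had a part in the levels of Mt1 or Mt2 was not tested. Of hypoxia genes, 6 of 12 were higher and 1 lower in Gzmd-high NK cells (Car9 by 1.71, Ankrd37 by 1.26, Pgk1 by 1.21 and Bnip3 by 1.17 on the log2 scale, Vegfa by -0.80), with a list median of 0.74 against -0.03 over all genes. In CD8 T cells with Havcr2, 9 of 11 were higher (Car9 by 1.85, Bnip3 by 1.76, Ndrg1 by 1.09 and Pgk1 by 0.98), with a list median of 0.80 against -0.00. In Treg cells 3 of 11 were higher than in CD8 T cells. With Klrg1, 2 of 10 were higher (Bnip3 by 0.58 and Ndrg1 by 0.45), and the list median was 0.03 against -0.01. In the cycling splits 2 of 11 (NK) and 4 of 10 (CD8 T) were higher and 1 (Vegfa, NK) lower, where 16.3% and 21.1% of all genes were called higher.

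Of glucocorticoid-responsive genes, none of 10 was called higher and 5 were called lower in Gzmd-high NK cells (Dusp1 by -1.42, Sgk1 by -1.28, Tsc22d3 by -1.01 and Klf9 by -0.90, with a list median of -0.89). In CD8 T cells with Havcr2, 4 of 9 were lower (Tsc22d3 by -0.57, Nr3c1 by -0.51, Dusp1 by -0.44, Klf9 by -0.43) and none higher. With Klrg1 only Ddit4 was called, higher by 0.77. Of antioxidant genes, 5 of 13 were higher with Havcr2 (Srxn1 by 1.56, Hmox1 by 0.76, Gsr by 0.45, Txn1 by 0.31) and Nfe2l2, which encodes NRF2, was lower by -1.15. In Gzmd-high NK cells Prdx1 was higher by 0.40 and Nfe2l2 lower by -0.65, and with Klrg1 only Srxn1 was called, higher by 0.61. Copper genes were called in 4 of 10 with Havcr2 (Mt3, Cox17 by 0.73, Slc31a1 by 0.33, Commd1 by 0.29), all higher, with Mt3 also counted above as a metallothionein. Of 10 copper genes, 1 was higher with Gzmd, in cycling NK cells and with Klrg1, and none lower. Between Treg and CD8 T cells 3 were higher and 2 lower, and in cycling CD8 T cells 2 were higher and 2 lower. Among iron genes the transferrin receptor Tfrc was higher with Gzmd (1.07) and with Havcr2 (0.82). Cycling NK and CD8 T cells had 6 and 5 of 13 antioxidant genes higher, none lower, and 4 of 10 and 6 of 9 glucocorticoid-responsive genes lower beside 1 and 2 higher. Treg cells had 3 of 14 antioxidant genes higher than CD8 T cells (Nqo1 by 2.79, Srxn1 by 1.83, Hmox1 by 1.05), and 4 of 9 glucocorticoid-responsive genes higher (Ddit4 by 2.26) and 2 lower. The dissociation list had 5 of 10 genes lower with Havcr2, 2 with Klrg1, 6 in Treg against CD8 T cells, 8 in cycling NK and 5 in cycling CD8 T cells, and none higher in these 5 comparisons. Of all genes fitted, 7.53% were called higher and 11.1% lower with Gzmd, 13.2% and 13.9% with Havcr2, and 3.24% and 3.82% with Klrg1. The shares were 13.1% and 11.4% in Treg against CD8 T cells, 16.3% and 11.9% in cycling NK and 21.1% and 19.9% in cycling CD8 T cells. With Gzmd, Prdx1 was 1 of 13 and Tfrc 1 of 9 called higher, near the share of all genes.

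Over the 21 sums of 7 cell groups in 3 libraries, the gene whose log2(CPM + 1) most resembled that of Mt1 among 9597 genes was Mt2, with a Pearson r of 0.970. Cdkn3 (0.910), Oxct1 (0.908), Fam92a (0.906) and Erp29 (0.898) came next. For Slc30a1 the nearest were Klhl28 (0.826), Utp23 (0.789), Gm15232 (0.787), 2610020C07Rik (0.778) and Ints9 (0.774). Slc30a1 had an r of 0.0961 with Mt1 and 0.0692 with Mt2 over these sums, which share libraries and depth and are not independent.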

How the data were processed

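The 10x Genomics matrices of 3 TIL libraries were analysed, 2 Kaede-green and 1 Kaede-red. The deposited values are raw UMI counts per gene and barcode, made by the authors with Cell Ranger against mm10. The submitters' processing notes give version 6.1.2 and the matrix headers 6.0.1. The members, gene lists and tests were chosen with earlier results of these data known.

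Cells with 1000 to 6000 genes and at most 7.5% mitochondrial UMIs were kept. Doublets were scored per library by simulation, as Scrublet does, and outlying subclusters (456, 391 and 244 cells) were removed. Gates used raw UMIs. Because cells are not replicates, UMIs were summed per library and group, sums under 20 cells were left out, and edgeR 4.0.16 (R 4.3.3, TMM, filterByExpr, quasi-likelihood test, Benjamini-Hochberg over all genes tested, threshold 0.05) was fitted with the library as a block, since both sums of a pair come from 1 library by construction. Adjusted p-values come from edgeR unless another tool is named, and concern these libraries only. They draw on variance estimates that edgeR shares across all genes fitted. With 2 or 3 libraries per fit, a small adjusted p is therefore not a measure of the spread between libraries alone. Poisson and binomial intervals (95%, exact) cover counting error only. Colour ratios had 0.5 added to each count. Depth was equalized by thinning each cell to 2000 UMIs, which left out at most 2 cells of any group. Joint detection was compared with the product of the shares within a gate and library.

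The genes named are the members throughout, every called Slc30, Slc39 or Mtf1 gene, at most 4 called genes per list and direction, and the 5 genes most like Mt1 and Slc30a1 among genes of at least 10 UMIs in 15 of 21 sums. Mtf1 is also given where it was not called, and Slc30a2 and Mt3 with their values per library. On simulated data with 100 genes changed at each size, the fit recovered 91% at a log2 fold change of 1 and 100% at 2 for the Havcr2 split (12233 genes), and 90% and 100% for the Klrg1 split (10074 genes). The simulated counts had 1 fixed dispersion and no difference between libraries other than depth, so these shares need not hold for the real libraries. Alternatives were DESeq2 1.42.0, RLE factors, no filter, no block, other cell filters and gates, thinning, and leaving out each library.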

Additional observations from a re-analysis of the deposited data

How the results depend on the processing

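Of 233 values computed under an alternative for the main results, gene counts included, 190 were judged unchanged, as were 75 of 90 single values. Members in the tested splits had to keep direction and call, counts to stay within 1.5-fold, and other values within the SD between libraries. For the Gzmd, Havcr2 and Treg to CD8 ratios, that outcome was fixed in advance when 1 of 3 libraries was left out. The mean of the rest cannot then move by as much as that SD. With no replicate block, the block being the library, the number of genes called went from 2216 to 963 for Gzmd, from 3310 to 69 for Havcr2, from 3129 to 614 for cycling NK cells and from 711 to 8 for Klrg1, and in the 3 tested splits no member stayed past the threshold: cycling NK cells gave 0.96 for Mt1 and 1.00 for Mt2, cycling CD8 T cells 0.60, 0.74 and -0.46 for Mt1, Mt2 and Slc30a1, and Klrg1 0.86 for Mt1 and 0.87 for Mt2 (log2 fold changes). With DESeq2 the counts were 1352, 2094, 1246, 2779 (cycling CD8 T cells, from 4597) and 241, and the calls were lost for Mt2 in cycling NK cells (0.95, adjusted p = 0.159) and for Mt1 (0.75, adjusted p = 0.228) and Slc30a1 (-0.46, adjusted p = 0.239) in cycling CD8 T cells. Thinning to 2000 UMIs gave 757, 1648, 737, 1722 and 246 genes in the same order. It ended every cycling call, with 0.59 for Mt1 and 1.06 for Mt2 in NK cells and 0.46, 0.77 and -0.091 for Mt1, Mt2 and Slc30a1 in CD8 T cells, and moved the Treg to CD8 ratio to 0.74 for Mt1 and to 0.25 for Mt2, the latter with a change of sign. Taking Gzmd at 1 or more UMIs gave 713 genes. For Klrg1, no filter on low counts gave 1148 genes and leaving out cells of overlapping gates 421, where Slc30a1 turned to 0.19. With doublets kept, which also brought in KG+ replicate 1, Slc30a1 in cycling NK cells passed at -0.60 (adjusted p = 0.0435). Thinning leaves fewer UMIs by construction; otherwise the cause was not tested.

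Leaving out each library in turn gave 876 to 3095 genes for Gzmd and 2040 to 3308 for Havcr2, both lowest without KG+ replicate 2, 163 to 565 for Klrg1 (347 without KG+ replicate 1 and 163 without KG+ replicate 2), and for Slc30a1 -0.59 to -0.30 in cycling CD8 T cells and -0.070 to 0.036 with Klrg1. In cycling NK cells it was not run, since only 2 libraries held enough cells. Of single values, 15 moved, among them Mt1 with Mt2 in NK cells, whose joint-detection ratio averaged 5.68 at 2000 and 12.2 at 1000 UMIs. Slc30a1 was limited by depth, with 6 UMIs in Gzmd-high NK cells of KG+ replicate 1 and 680 in KR+ CD8 T cells with Havcr2.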
